A study of Mus musculus with 6 samples.

Results

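The 9 genes described here handle retinoids, the vitamin A derivatives: Stra6, Crabp1, Crabp2, Adh1, Aldh1a1, Aldh1a2, Cyp26b1, Rara and Rarb. They were chosen by symbol, and each was matched to 1 of the 29275 Ensembl identifiers for which the processed files list a value. RNA was sequenced from primary mouse Sertoli cells, the somatic cells that nurse the germ cells in the seminiferous tubule, after culture in serum-containing medium with EGF. One group, labelled Arhgef15 cKO (n = 3), came from mice with a conditional deletion of Arhgef15, a guanine nucleotide exchange factor gene, and the other was WT (n = 3) and labelled untreated. The titles number 3 biological replicates in each group. No source used here gives the Cre driver, the deleted exons, the age of the mice or any pooling of animals. Where nothing says that the replicates came from separate animals or cultures, p-values measure only the spread between these libraries.

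Retinol reaches cells on a plasma carrier and enters through membrane receptors such as STRA6. Alcohol and retinol dehydrogenases oxidise it to retinal, and ALDH1A enzymes oxidise retinal to retinoic acid. Retinoic acid is bound in the cytosol by CRABP proteins, acts in the nucleus through RAR and RXR receptors, and is broken down by CYP26 enzymes. In the testis, retinoic acid starts spermatogonial differentiation and meiosis, and Sertoli cells are among its sources and its targets.

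Each value was taken as an FPKM (fragments scaled by gene length and library size), and levels of different genes were compared per length. Such comparisons may not hold for every gene. Gapdh, a housekeeping gene, was listed at only 3.95 to 7.58 FPKM in cKO and 3.35 to 9.38 FPKM in WT libraries, and the cause was not tested. Depth was 16790000 to 20090000 fragments in cKO libraries and 18750000 to 20320000 in WT libraries, as recovered from the steps between values. Arhgef15 itself was listed at 0.501, 0.322 and 0.338 FPKM in cKO replicates 1, 2 and 3, against 0.123, 0.0237 and 0.349 FPKM in WT replicates 1, 2 and 3. Its mean was higher in cKO libraries, at 0.387 FPKM, than in WT libraries, at 0.165 FPKM, the opposite of what the labels say, without passing (difference 0.26, SE 0.13, and 0.37, SE 0.09, without WT replicate 3; limma, adjusted p = 0.903 with all 6 libraries). The deleted exons are not given, so a value for the whole gene is no direct measure of the deletion. These files cannot tell apart a low rate of deletion, exchanged labels and other causes, and none was tested. Every cKO minus WT value below therefore holds for the libraries as labelled. Across 12284 genes, WT replicate 3 correlated at 0.947, 0.929 and 0.921 with cKO replicates 1, 2 and 3 (Pearson, log2 scale), but at 0.860 and 0.898 with WT replicates 1 and 2. Fitted differences are therefore given with and without WT replicate 3. That library was singled out from these same values, and leaving out the WT library most like cKO tends to widen the groups. Adjusted p-values without WT replicate 3, and genes said to pass there, are therefore descriptions only. Sertoli markers were present in every library, with Clu, the clusterin gene, at 335 to 452 FPKM in cKO and 79.2 to 476 FPKM in WT libraries. The FSH receptor gene Fshr, a defining Sertoli marker, was listed at 0 in WT replicates 1 and 2.

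None of the 9 genes passed the threshold between cKO and WT libraries (limma on log2(FPKM + 1), Benjamini-Hochberg adjusted p under 0.05 over all tested genes). In the same fit 0.0163% of the 12284 tested genes were called. Adh1, Crabp2 and Stra6 had an unadjusted p under 0.05, as did 6.81% of all tested genes. Of the 9 genes, 7 reached 1 FPKM in 3 or more libraries, the condition for entering the fit. Crabp1 and Rarb did not, and their values come from a fit over all 29275 genes. Crabp2 passed only through its 3 cKO values, so its place among the tested genes is not independent of its difference. The same filter was kept when WT replicate 3 was left out. Among the libraries of that fit Stra6 reached 1 FPKM only in cKO libraries, so the same limit holds for Stra6 there. The cKO values lay below all WT values for Adh1, a pattern shown by 5.01% of tested genes. They lay above all WT values for Crabp2, a pattern shown by 6.28%, and the groups overlapped for the other 7.

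**Figure D1:**
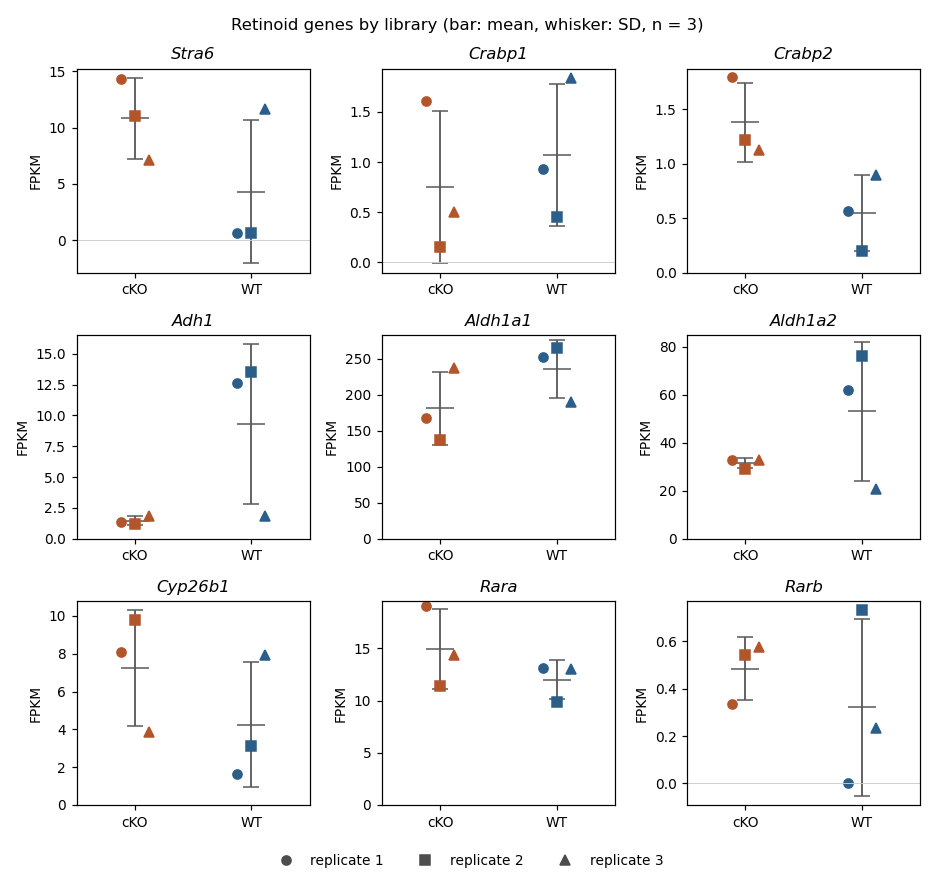
FPKM of the 9 retinoid genes in each cKO library (left, orange) and each WT library (right, blue), with the mean and SD of 3 replicates on linear axes. WT replicate 3 (triangle) sits at 11.7 FPKM for Stra6 and 1.87 FPKM for Adh1, near the cKO libraries and far from the other WT libraries.

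Ordered by mean level in cKO libraries, Aldh1a1 stood first at 181 ± 51.1 FPKM, Aldh1a2 second at 31.5 ± 2.12 FPKM and Rara next at 14.96 ± 3.86 FPKM (SD, n = 3). Stra6 followed at 10.8 ± 3.59 FPKM and Cyp26b1 at 7.25 ± 3.07 FPKM. The remaining genes were low, with Adh1 at 1.48 ± 0.3504, Crabp2 at 1.38 ± 0.362, Crabp1 at 0.751 ± 0.762 and Rarb at 0.484 ± 0.132 FPKM. Libraries of Rara overlapped those of Stra6, libraries of Stra6 overlapped those of Cyp26b1, and below Cyp26b1, which stood clear of Adh1, each gene overlapped the next. In WT libraries Aldh1a1 and Aldh1a2 also stood first and second without overlap, at 236 ± 39.97 and 53.0 ± 28.9 FPKM (SD, n = 3), and Rara followed at 12.01 ± 1.85 FPKM. Below Rara the WT order was Adh1, Stra6, Cyp26b1, Crabp1, Crabp2 and Rarb, and each of these overlapped its neighbour.

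Promoter windows were taken from RefSeq (GRCm38.p6), which held 15 windows of 300 bases for 8 of the 9 genes. Crabp2 was not among them. Shown here are the windows of Rarb and of Cyp26a1, a retinoic acid hydroxylase gene, because both hold the repeat through which retinoic acid receptors are known to bind DNA, and those of Adh1 and Stra6, because these 2 genes had the most opposite patterns over the libraries. Each runs from 250 bases before to 50 bases after a RefSeq start, 5′ to 3′ on the gene's strand. For Stra6, the first of the 4 windows is given. Capitals mark the receptor half-site on either strand. Its canonical form was taken as AGGTCA in the search. A second form searched was AGTTCA, another form searched was GGGTCA, and the last form searched was GGTTCA.
Rarb, chr14:16575427-16575726, minus strand: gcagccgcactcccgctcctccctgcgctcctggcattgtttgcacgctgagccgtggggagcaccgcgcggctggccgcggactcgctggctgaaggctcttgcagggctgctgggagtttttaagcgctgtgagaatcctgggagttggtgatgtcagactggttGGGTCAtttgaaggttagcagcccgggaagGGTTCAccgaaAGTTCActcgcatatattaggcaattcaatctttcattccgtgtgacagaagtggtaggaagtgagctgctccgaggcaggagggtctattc
Cyp26a1, chr19:37697558-37697857, plus strand: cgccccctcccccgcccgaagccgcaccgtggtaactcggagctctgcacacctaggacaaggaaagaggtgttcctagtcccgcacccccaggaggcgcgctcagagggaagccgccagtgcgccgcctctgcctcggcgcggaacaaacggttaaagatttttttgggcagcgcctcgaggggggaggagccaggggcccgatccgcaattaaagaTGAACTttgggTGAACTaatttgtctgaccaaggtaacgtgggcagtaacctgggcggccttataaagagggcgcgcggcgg
Adh1, chr3:138277335-138277634, plus strand: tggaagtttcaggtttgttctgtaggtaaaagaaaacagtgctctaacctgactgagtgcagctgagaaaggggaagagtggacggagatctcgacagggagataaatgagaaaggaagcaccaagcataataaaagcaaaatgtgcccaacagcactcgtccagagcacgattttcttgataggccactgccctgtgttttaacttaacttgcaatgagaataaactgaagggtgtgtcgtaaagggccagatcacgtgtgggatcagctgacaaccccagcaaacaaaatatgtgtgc
Stra6, chr9:58128838-58129137, plus strand: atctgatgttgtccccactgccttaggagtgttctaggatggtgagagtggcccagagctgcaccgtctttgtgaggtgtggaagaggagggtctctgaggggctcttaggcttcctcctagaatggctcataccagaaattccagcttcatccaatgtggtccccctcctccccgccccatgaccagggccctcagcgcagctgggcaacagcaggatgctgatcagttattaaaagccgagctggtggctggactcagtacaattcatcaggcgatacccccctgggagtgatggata
Direct repeats of the half-site with a spacer of 5 bases were found in Rarb from position -53 and, on the opposite strand, in Cyp26a1 from position -32, both counted from the start. Of all 32851 RefSeq windows of this length, 32 held such a repeat on either strand (0.0974%), while 43.7% held at least 1 half-site. Among the 15 windows of the 9 genes, 1 held a repeat with a spacer of 5 and 0 held one with a spacer of 1 or 2. A match describes the letters of the window and shows no binding.

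Stra6, the gene of the membrane receptor through which cells take up retinol from its plasma carrier, had the widest range of the 9 on the log2(FPKM + 1) scale. Its level was 14.3, 11.02 and 7.17 FPKM in cKO replicates 1, 2 and 3, against 0.668, 0.598 and 11.7 FPKM in WT replicates 1, 2 and 3. WT replicates 1 and 2 were the low libraries, and WT replicate 3 lay within the cKO range. The WT values rested on 73, 68 and 1380 fragments, so counting error does not span that gap. The log2(FPKM + 1) difference, cKO minus WT, was 1.83 with an SE of 0.77 and a 95% interval of 0.04 to 3.62 (limma, adjusted p = 0.727). By exact permutation of the 6 libraries (two-sided) p was 0.3, and no split of 3 against 3 can give less than 0.1. Without WT replicate 3 the difference was 2.81 with an SE of 0.30, and it passed (limma, adjusted p = 0.0106, with a range over all 14 alternatives of 0.0106 to 0.9998). Sertoli markers, 18 of 18 measured, summed to 847 to 1157 FPKM in cKO libraries, against 436.5, 435 and 1354 FPKM in WT replicates 1, 2 and 3, and without Clu to 511 to 705 FPKM in cKO libraries, against 329.8, 356 and 878 FPKM in WT libraries. In 12 of the 18, as for Stra6, WT replicates 1 and 2 were both below all cKO libraries, and in 2 both were above them, the inhibin subunit gene Inhbb and the transcription factor gene Sox8. The share of all tested genes with either pattern was not counted, so these marker counts, here and below, have no background. The part of Sertoli markers in the Stra6 values was not tested. In bulk RNA of this kind, fewer cells of a type and less RNA per cell cannot be told apart.

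The binding proteins of retinoic acid were low in all libraries. Crabp2, whose product carries retinoic acid to its nuclear receptors, was listed at 1.80, 1.22 and 1.13 FPKM in cKO replicates 1, 2 and 3, against 0.565, 0.194 and 0.893 FPKM in WT replicates 1, 2 and 3. These values rested on 46, 27 and 30 fragments in cKO libraries and on 14, 5 and 24 fragments in WT libraries. The exact Poisson 95% interval of WT replicate 3, 0.572 to 1.33 FPKM, reached into the cKO range. Its log2(FPKM + 1) difference was 0.63 with an SE of 0.25 and a 95% interval of 0.04 to 1.23 (limma, adjusted p = 0.701), and exact permutation gave the smallest possible p, 0.1. Without WT replicate 3 the difference was 0.79 (limma, adjusted p = 0.129, with a range over the alternatives of 0.129 to 0.9998). Crabp1, the second cytosolic binding protein and a marker of spermatogonia in the testis, was listed at 1.61, 0.149 and 0.496 FPKM in cKO libraries, against 0.931, 0.448 and 1.84 FPKM in WT libraries. Its highest values, in cKO replicate 1 and WT replicate 3, rested on 25 and 30 fragments. These 2 libraries also had the highest sums of 12 spermatogonia and spermatocyte markers, 217 and 273 FPKM, against 100.3 and 120.0 FPKM in cKO replicates 2 and 3 and 43.8 and 31.3 FPKM in WT replicates 1 and 2. Uchl1 gave most of these sums; without it they were 79.1 and 98.96 FPKM in cKO replicate 1 and WT replicate 3, and 3.37 to 9.34 FPKM in the other 4 libraries. The part of germ cells in Crabp1 was not tested. The Crabp1 difference was -0.27 (SE 0.41; limma, adjusted p = 0.924 over all genes), and -0.02 (SE 0.42) without WT replicate 3.

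Of the other carriers and storage genes, 9 of 10 listed were analysed and 4 passed the filter. Of these 4, limma called 0 and 0 had an unadjusted p under 0.05, and their median log2(FPKM + 1) difference was 0.17, against 0.08 over all tested genes (0.20 and 0.11 without WT replicate 3). Rbp4, the plasma retinol carrier, was listed at 4.88, 1.91 and 5.11 FPKM in cKO libraries, against 0.913, 1.76 and 8.28 FPKM in WT libraries, so that WT replicate 3 was the highest. The Rbp4 difference was 0.36 (SE 0.60), and 1.04 (SE 0.38) without WT replicate 3, and it passed in neither fit. Scarb1, a lipoprotein receptor that takes up carotenoids, had 11.2 ± 2.04 FPKM in cKO and 9.76 ± 2.17 FPKM in WT libraries (SD, n = 3 each), a difference of 0.18 (SE 0.24), and 0.07 (SE 0.24) without WT replicate 3. Lrat, which esterifies retinol for storage, did not exceed 0.239 FPKM in any library.

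Adh1, a cytosolic alcohol dehydrogenase that oxidises retinol to retinal, ran opposite to Stra6. Values were 1.36, 1.2004 and 1.87 FPKM in cKO replicates 1, 2 and 3, against 12.6, 13.5 and 1.87 FPKM in WT replicates 1, 2 and 3. WT replicates 1 and 2 were the high libraries. The groups did not overlap, but only by 84 fragments in cKO replicate 3 against 85 in WT replicate 3. The log2(FPKM + 1) difference was -1.75 with an SE of 0.60 and a 95% interval of -3.14 to -0.36 (limma, adjusted p = 0.650; exact two-sided permutation p = 0.1, the smallest possible). Without WT replicate 3 it was -2.51 with an SE of 0.22 and passed (limma, adjusted p = 0.00767, with a range over the alternatives of 0.00767 to 0.9998). Gm16559 overlaps Adh1 exons on the opposite strand in the GENCODE M21 annotation, and it was listed at no more than 0.0984 FPKM in any library. Macrophage markers were also highest in WT replicates 1 and 2, and the 12 measured summed to 271, 147 and 212 FPKM in cKO libraries, against 1177, 946 and 223 FPKM in WT libraries. In 10 of the 12, WT replicates 1 and 2 were both above all cKO libraries. Of 8 peritubular myoid markers this held for 3, Acta2, Tagln and Actg2, while the others, such as the smooth muscle myosin gene Myh11, did not separate the libraries in this way. For 4 of 9 fibroblast and stromal markers, WT replicates 1 and 2 were both above all cKO libraries, and for 1 both were below. Whether any of these cell types contributed to the Adh1 values was not tested, and the share of all tested genes with such patterns was not counted.

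Rdh10, the retinol dehydrogenase that supplies most retinal in mouse embryos, was low in WT replicates 1 and 2 alone, as was Stra6 and opposite to Adh1. Its values were 13.7, 16.1 and 21.8 FPKM in cKO replicates 1, 2 and 3, against 2.22, 2.86 and 16.7 FPKM in WT replicates 1, 2 and 3. Its difference was 1.57 (SE 0.61; limma, adjusted p = 0.691), and 2.35 (SE 0.25) without WT replicate 3, which passed (limma, adjusted p = 0.0106, with a range over the alternatives of 0.0106 to 0.9998). Dhrs3, which reduces retinal back to retinol, was listed at 9.41, 7.12 and 18.8 FPKM in cKO libraries, against 29.2, 22.7 and 10.8 FPKM in WT libraries. Its difference was -0.78 (SE 0.44), and -1.17 (SE 0.38) without WT replicate 3, and it passed in neither fit. Retsat, the retinol saturase gene, was lower in each cKO library, at 10.7, 8.27 and 7.68 FPKM, than in any WT library, at 15.1, 11.5 and 12.6 FPKM, without passing (difference -0.52, SE 0.22, limma, adjusted p = 0.727, and -0.53, SE 0.23, without WT replicate 3). All 15 listed oxidoreductases were analysed and 11 passed the filter. Their median difference was -0.08, against 0.08 over all tested genes (-0.05 and 0.11 without WT replicate 3). Limma called 0, against 0.0163% of all tested genes, and 2 of the 11 had an unadjusted p under 0.05, against 6.81%. All cKO values lay below all WT values in 2 of the 11, Retsat among them, a pattern shown by 5.01% of tested genes.

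Aldh1a1, the more abundant retinal dehydrogenase and a known product of Sertoli and Leydig cells, was the most highly expressed of the 9 in every library. Levels were 168, 138 and 237 FPKM in cKO replicates 1, 2 and 3, against 252, 266 and 191 FPKM in WT replicates 1, 2 and 3. Its groups overlapped through cKO replicate 3 and WT replicate 3, and the difference was -0.40 with an SE of 0.26 and a 95% interval of -1.02 to 0.21 (limma, adjusted p = 0.819), and -0.55 with an SE of 0.26 without WT replicate 3, which did not pass either. Leydig markers, 9 of 10 measured, summed to 204 to 340 FPKM in cKO and 248.8 to 473 FPKM in WT libraries. The single markers did not all run with the sum. WT replicates 1 and 2 were both below all cKO libraries in 2 of the 9, both above them in 1, and neither in 6. The part of Leydig markers in Aldh1a1 was not tested.

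Aldh1a2, the retinal dehydrogenase known from spermatocytes in the testis, was even among the cKO libraries and uneven among the WT libraries. Its levels were 32.8, 29.1 and 32.7 FPKM in cKO replicates 1, 2 and 3, against 62.1, 76.3 and 20.8 FPKM in WT replicates 1, 2 and 3. WT replicates 1 and 2 were above all cKO libraries and WT replicate 3 was below them. With all 6 libraries the difference was -0.54 (SE 0.45; limma, adjusted p = 0.864; exact permutation p = 0.4). Leaving out WT replicate 3 gave -1.10 with an SE of 0.19, which passed (limma, adjusted p = 0.0308, with a range over the alternatives of 0.0308 to 0.9998). Spermatogonia and spermatocyte markers without Uchl1 summed to 79.1, 6.25 and 9.34 FPKM in cKO replicates 1, 2 and 3. In WT replicates 1, 2 and 3 they summed to 3.37, 6.38 and 98.96 FPKM. The part of germ cells in the Aldh1a2 values was not tested. Aldh1a3, the third enzyme of this group, averaged 4.08 ± 1.02 FPKM in cKO and 4.84 ± 1.78 FPKM in WT libraries (SD, n = 3 each), a difference of -0.18 (SE 0.29), and 0.05 (SE 0.25) without WT replicate 3.

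Of the summed FPKM of the 3 Aldh1a genes, Aldh1a2 made up 16.0%, 17.1% and 11.9% in cKO replicates 1, 2 and 3, against 19.5%, 22.1% and 9.51% in WT replicates 1, 2 and 3. Aldh1a1 made up 81.2% to 86.4% in cKO and 76.8% to 87.3% in WT libraries, so it was the main form in each. The lowest and the highest Aldh1a2 share both came from WT libraries. The mean share was 2.03 percentage points lower in cKO libraries, and without WT replicate 2 that difference turned to 0.479 points higher; without WT replicate 3 it was -5.80 points.

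Cyp26b1, the retinoic acid hydroxylase that in the mouse fetal testis keeps germ cells from entering meiosis, was the main Cyp26 gene. Its values were 8.10, 9.81 and 3.84 FPKM in cKO replicates 1, 2 and 3, against 1.65, 3.13 and 7.95 FPKM in WT replicates 1, 2 and 3. Again WT replicate 3 lay within the cKO range, while WT replicates 1 and 2 lay below it. Its difference was 0.76 with an SE of 0.49 and a 95% interval of -0.39 to 1.91 (limma, adjusted p = 0.817), and 1.24 with an SE of 0.39 without WT replicate 3 (limma, adjusted p = 0.126, with a range over the alternatives of 0.126 to 0.9998). It made up 72.2% to 94.4% of the summed Cyp26 FPKM in cKO libraries and 85.2% to 100% in WT libraries.

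Cyp26a1, whose promoter holds the repeat printed above, was listed at 1.33, 0.511 and 1.48 FPKM in cKO replicates 1, 2 and 3, against 0, 0 and 1.22 FPKM in WT replicates 1, 2 and 3. No fragment was seen in WT replicates 1 and 2, where 3 fragments would correspond to 0.0807 and 0.0776 FPKM, while WT replicate 3 had 49. The cKO values rested on 51, 17 and 59 fragments. The difference was 0.66 (SE 0.38; limma, adjusted p = 0.786), and 1.04 (SE 0.28) without WT replicate 3, which did not pass either. Among the libraries of that second fit Cyp26a1 reached 1 FPKM only in cKO libraries, so its place there is not independent of its difference. Cyp26c1 did not pass the filter.

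The ratio of the summed Aldh1a to the summed Cyp26 FPKM set the synthesis genes beside the breakdown genes within each library. It was 21.3, 16.3 and 51.6 in cKO replicates 1, 2 and 3, against 192, 110 and 23.4 in WT replicates 1, 2 and 3. WT replicates 1 and 2 thus stood above every cKO library, and WT replicate 3 lay between cKO replicates 1 and 3. It is a ratio of transcript levels and no measure of retinoic acid.

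**Figure D2:**
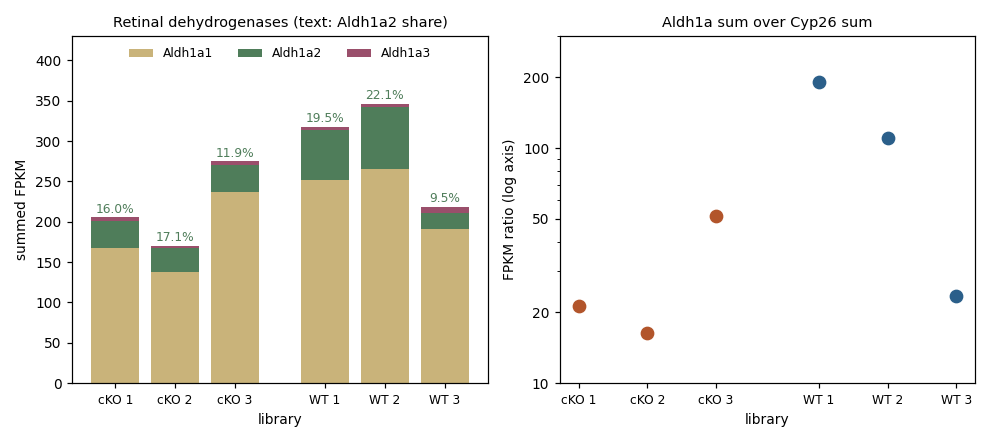
Left, FPKM of Aldh1a1, Aldh1a2 and Aldh1a3 stacked by library, with the Aldh1a2 share above each bar. Right, the ratio of the Aldh1a sum to the Cyp26 sum on a log axis, which is 192 and 110 in WT replicates 1 and 2 and between 16.3 and 51.6 in the other 4 libraries.

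Rara, the retinoic acid receptor gene required in Sertoli cells for spermatogenesis in the mouse, spanned less than one log2 unit over the 6 libraries. It stood at 19.1, 11.4 and 14.4 FPKM in cKO replicates 1, 2 and 3, against 13.1, 9.88 and 13.1 FPKM in WT replicates 1, 2 and 3. Groups overlapped, and the difference of 0.28 had an SE of 0.25 and a 95% interval of -0.30 to 0.85 (limma, adjusted p = 0.876), and 0.34 with an SE of 0.26 without WT replicate 3. Rarb, a receptor gene that is itself induced by retinoic acid in many cells, was listed at 0.333, 0.543 and 0.577 FPKM in cKO libraries, against 0, 0.730 and 0.234 FPKM in WT libraries. WT replicate 1 had 0 fragments and WT replicate 2 had 75, the most of all 6. The Rarb difference was 0.20 (SE 0.22; limma, adjusted p = 0.903 over all genes), and 0.17 (SE 0.27) without WT replicate 3, and weighting the libraries turned it to -0.12. Exons of Top2b overlap Rarb on the opposite strand in the annotation, and with no stated strand setting fragments of the shared stretch cannot be assigned. Top2b was listed at 4.05, 6.66 and 10.0 FPKM in cKO libraries, against 3.55, 8.62 and 7.87 FPKM in WT libraries. It had 972 fragments in WT replicate 1, beside 0 for Rarb, and 1147 in cKO replicate 1, beside 34 for Rarb. The part of Top2b in the Rarb values was not tested.

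Rarg, the third RAR gene, known from spermatogonia, was listed at 9.86, 7.49 and 7.28 FPKM in cKO libraries, against 14.7, 10.5 and 7.24 FPKM in WT libraries. Its difference was -0.32 (SE 0.28), and -0.55 (SE 0.24) without WT replicate 3, and it passed in neither fit. Rara made up 58.7% to 65.2% of the summed RAR FPKM in cKO libraries, against 47.1%, 46.9% and 63.6% in WT replicates 1, 2 and 3. The share of Rara in WT replicate 3 was thus within the cKO range. Among the RXR partners, Rxra averaged 9.32 ± 0.830 FPKM in cKO and 12.6 ± 4.22 FPKM in WT libraries, and Rxrb 11.5 ± 2.02 FPKM in cKO and 8.17 ± 3.86 FPKM in WT libraries. The Rxra difference was -0.35 (SE 0.28), and -0.64 (SE 0.19) without WT replicate 3; that of Rxrb was 0.51 (SE 0.31), and 0.30 (SE 0.30) without it, and neither gene passed. Rxrg did not exceed 0.0670 FPKM. Of the 11 receptor and partner genes, 10 passed the filter. Limma called 0 and gave 1 of the 10 an unadjusted p under 0.05, against 6.81% of all tested genes, with a median difference of 0.18 (0.32 without WT replicate 3).

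Of 12 listed retinoic acid target genes, 7 passed the filter, and limma called 0 and gave 0 an unadjusted p under 0.05, with a median difference of 0.18 against 0.08 over all tested genes (0.37 and 0.11 without WT replicate 3). Stra8, the germ cell gene through which retinoic acid starts meiosis, was listed at 3.92, 0.396 and 1.74 FPKM in cKO replicates 1, 2 and 3, against 0, 0.0569 and 5.35 FPKM in WT replicates 1, 2 and 3. WT replicate 3 was the highest library and the other WT libraries were the lowest. Nrip1, a nuclear receptor cofactor, was listed at 2.45, 4.19 and 4.40 FPKM in cKO libraries, against 1.05, 2.20 and 4.29 FPKM in WT libraries. The Stra8 difference was 0.50 (SE 0.77), and 1.37 (SE 0.49) without WT replicate 3; that of Nrip1 was 0.49 (SE 0.38), and 0.84 (SE 0.31) without it, and neither gene passed. In both genes the spread within WT libraries was wider than the difference between the means. With WT replicate 3 left out, Stra8 reached 1 FPKM only in cKO libraries, so its place in that fit is not independent of its difference.

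Over all 48 other pathway genes listed, 47 were analysed and 31 passed the filter. Dhrs3 and Nrip1 stand in 2 lists each and are counted once here. With all 6 libraries limma called 0 and gave 3 of the 31 an unadjusted p under 0.05, against 0.0163% and 6.81% of all tested genes. Differences were above 0 for 67.7% of the 31, against 59.8% of all tested genes, and the median was 0.15, against 0.08. Without WT replicate 3, 3 of the 31 passed, where 3.89% of all tested genes did. These were Rdh10 and Adh4, another alcohol dehydrogenase gene, which were higher, and Fabp5, a fatty acid binding protein that also binds retinoic acid, which was lower. Adh4 was listed at 1.71, 2.18 and 2.30 FPKM in cKO libraries, against 0.110, 0.0354 and 2.88 FPKM in WT libraries, with a difference of 0.89 (SE 0.50), and 1.51 (SE 0.22) without WT replicate 3 (limma, adjusted p = 0.0199, range over the alternatives 0.0199 to 0.9998). Fabp5 was listed at 13.9, 13.5 and 18.2 FPKM in cKO libraries, against 50.4, 36.7 and 9.89 FPKM in WT libraries, with a difference of -0.78 (SE 0.54), and -1.45 (SE 0.23) without WT replicate 3 (limma, adjusted p = 0.0248, range 0.0248 to 0.9998). Among the libraries of the fit without WT replicate 3, Adh4 reached 1 FPKM only in cKO libraries, so its place there is not independent of its difference. Adh4 and Fabp5 were named after their values were seen.

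**Figure D3:**
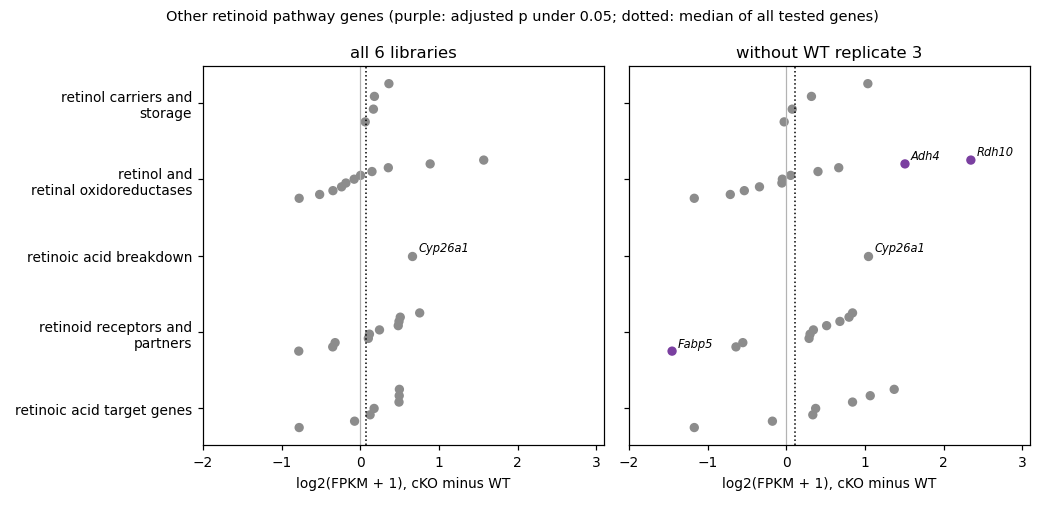
Difference of log2(FPKM + 1), cKO minus WT, of each tested pathway gene outside the 9, by role, with all 6 libraries (left) and without WT replicate 3 (right). No point passes the test on the left, and Rdh10, Adh4 and Fabp5 pass on the right; the dotted line is the median of all tested genes, 0.08 on the left and 0.11 on the right.

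Without WT replicate 3, 3 of the 7 tested genes of the set passed: Stra6 was higher and Adh1 and Aldh1a2 were lower in cKO libraries. Among all tested genes 478 were called with the same omission, against 2 with all libraries, so a share near 3.89% is the background for this count. That fit compares 3 cKO libraries with 2 WT libraries, and the omission was chosen from these same values, so its calls are descriptive. Leaving out any other library gave 0 calls among the 7. On the log2(FPKM + 1) scale, WT replicate 3 lay nearer to the cKO mean than to the mean of WT replicates 1 and 2 in 7 of the 9 genes, and in 70.6% of all tested genes.

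**Figure D4:**
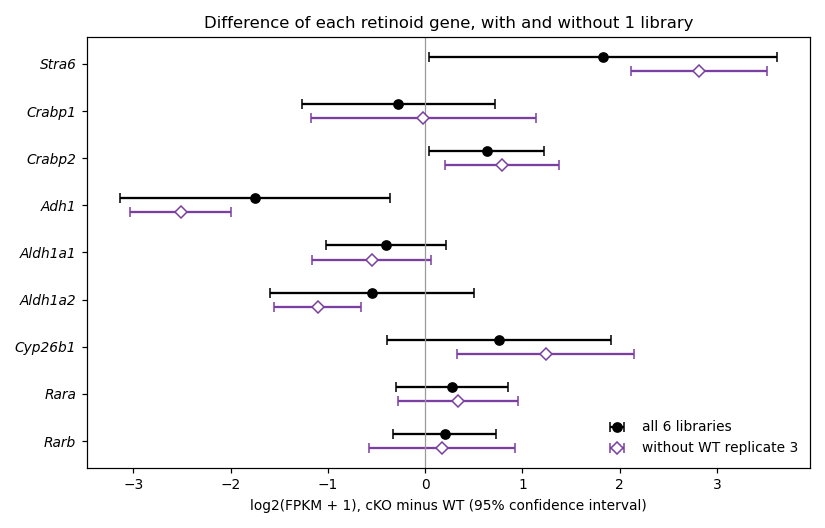
Difference of log2(FPKM + 1), cKO minus WT, with its 95% limma interval for each of the 9 genes, fitted with all 6 libraries (black) and without WT replicate 3 (purple). The Adh1 value moves from -1.75 to -2.51 and the Stra6 value from 1.83 to 2.81, and neither passes the adjusted threshold with all 6 libraries.

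Stra6 and Adh1 correlated at -0.986 with each other (Pearson, log2(FPKM + 1), 6 libraries that share both groups and the position of WT replicate 3). Aldh1a2 and Adh1 correlated at 0.913, Aldh1a1 and Adh1 at 0.797, Stra6 and Cyp26b1 at 0.893, and Stra6 and Crabp2 at 0.886. Rarb followed none of the others closely, with coefficients from -0.593 with Crabp1 to 0.283 with Cyp26b1. These are descriptions of 6 libraries and carry no test.

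Gene by gene, the closest patterns among named genes that passed the filter were sought by the same coefficient. Closest to Stra6 were Gstp3 (0.9996) and Tmeff1 (0.997), and closest to Adh1 were Wdr1 (0.997) and Mpp1 (0.996). Aldh1a2 was matched most closely by Steap3 (0.996) and Smarcd3 (0.9899), and Aldh1a1 by Mrps35 (0.993) and Ifi209 (0.989). Cyp26b1 lay closest to Ak4 and Fbxo10 (both 0.994), Crabp2 to Cish (0.991) and Ptprn (0.988), and Rara to Spryd3 (0.988) and Elp5 (0.982). These genes were not alone at high coefficients over 6 libraries: at the lower cut of 0.95, between 17 genes for Aldh1a1 and 191 genes for Stra6 exceeded it.

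Other cell types were present at levels that differed between libraries. Lyz2, the lysozyme of macrophages, was listed at 69.2, 37.1 and 69.4 FPKM in cKO libraries, against 648, 577 and 66.5 FPKM in WT libraries, and Acta2, the smooth muscle actin of myoid cells, at 599, 767 and 1069.5 FPKM in cKO libraries, against 2853, 2240.0 and 432 FPKM in WT libraries. Acta2 made up most of the sum of the 8 myoid markers, 687, 819 and 1295 FPKM in cKO libraries, against 3080.1, 2450.0 and 521 FPKM in WT libraries. Without Acta2 that sum was 88.0, 52.4 and 225 FPKM in cKO libraries, against 227, 209.99 and 89.0 FPKM in WT libraries. Fibroblast markers, 9 of 9 measured, summed to 556 to 914 FPKM in cKO and 497 to 1054 FPKM in WT libraries, led by Col1a1. In 4 of the 9, WT replicates 1 and 2 were both above all cKO libraries, as for Adh1, and in 1 both were below. Endothelial markers, 10 of 10 measured and led by Eng, summed to 177, 109 and 106 FPKM in cKO libraries, against 126, 105 and 99.4 FPKM in WT libraries. Without Eng they summed to 103.5, 63.98 and 60.4 FPKM in cKO libraries, against 36.95, 32.1 and 63.3 FPKM in WT libraries, and in 8 of the 10 WT replicates 1 and 2 were both below all cKO libraries, as for Stra6. The adhesion molecule gene Pecam1 was listed at 7.99, 2.49 and 3.52 FPKM in cKO libraries, against 0.317, 0.263 and 6.43 FPKM in WT libraries, and, like Inhbb, Sox8, Tagln, Actg2 and Myh11, is named after its values were seen. Spermatid markers, 10 of 10 measured and led by Prm1, summed to 277, 57.7 and 16.3 FPKM in cKO libraries, against 142, 62.5 and 173 FPKM in WT libraries. Markers of rete testis and epididymal epithelium, 9 of 10 measured and led by Lcn2, summed to 134, 101 and 58.0 FPKM in cKO libraries, against 50.8, 20.9 and 177 FPKM in WT libraries. Among the defining markers, the Leydig enzyme gene Cyp17a1 was at 0 in WT replicate 2 and peaked at only 0.186 FPKM, in cKO replicate 1. Of the 9 Leydig markers measured, 3 were under 1 FPKM in all libraries. The meiotic gene Dmc1 was at 0 in WT replicate 1. The acrosomal gene Acrv1 was at 0 in cKO replicates 2 and 3 and peaked at 0.112 FPKM, in WT replicate 2. Adam7 was at 0 in every library but WT replicate 2. The part of these cell types in the retinoid values was not tested. For the marker counts against WT replicates 1 and 2, no share of all tested genes was counted.

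**Figure D5:**
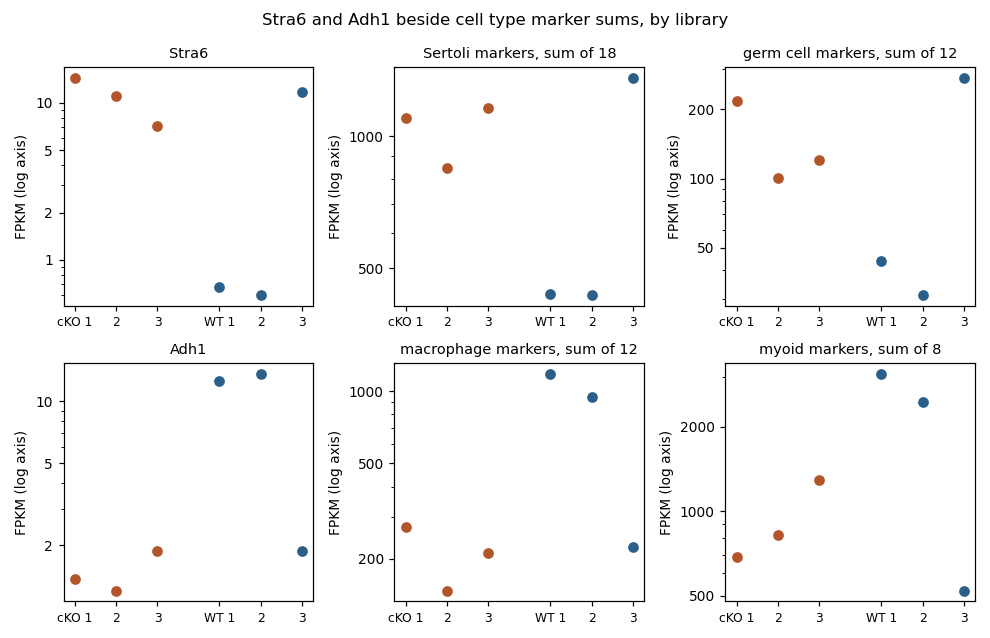
FPKM of Stra6 and Adh1 and the summed FPKM of 4 marker lists in each cKO library (orange, left) and WT library (blue, right), on log axes. WT replicates 1 and 2 are low for Stra6 and the Sertoli sum and high for Adh1 and the macrophage sum, and WT replicate 3 sits with the cKO libraries or beyond them; the germ cell sum is mostly Uchl1 and the myoid sum mostly Acta2.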

How the data were processed

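RNA of 6 libraries was measured, with 1 deposited file each. The submitters' processing notes name FastQC, HISAT2 2.1.0 and genome build mm8; no source used here names the counter, the annotation or the strand setting. The files state no unit. The deposited values were taken as FPKM because, multiplied by exonic length (GENCODE M21, GRCm38), 99.1% to 99.5% of those of single-exon genes at 10 fragments or fewer came out whole (tolerance 0.02 times the fragment number). Identifiers newer than mm8 put that build in doubt, so no coordinates of the files are given. Symbols were found for 28932 of 29275 identifiers.

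Values were transformed to log2(FPKM + 1), which understates the change of low genes. Genes reaching 1 FPKM in 3 or more libraries (12284) were fitted by genotype with limma 3.58.1 (R 4.3.3, trended empirical Bayes, two-sided), and p-values were adjusted by Benjamini-Hochberg over all of them. A count test was not used, since FPKM are normalized. Exact Poisson 95% intervals cover counting error only. Tables and figures were made in Python 3.11.15.

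The 9 genes and all lists were chosen with earlier results of these data known. Named beside the 9 were the 2 tested genes with the smallest p in each pathway list, 12 set pathway genes, the 2 genes most like each member and the most abundant gene of each marker list. Alternatives changed the pseudocount, filter or scaling, weighted the libraries, blocked on replicate number, or left out 1 library. Values of some pathway genes that this rule names are not reported here.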

Additional observations from a re-analysis of the deposited data

How the results depend on the processing

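Among the 9 genes, 119 alternative values kept their direction and their side of the threshold, 3 passed it and 1 reversed. Stra6, Adh1 and Aldh1a2 passed only without WT replicate 3, and Rarb turned to -0.12 with library weights; the cause was not tested. The number of the 9 past the threshold ranged from 0 to 3 with 1 library left out, the number of other pathway genes from 0 to 3, and the number of all genes from 0 to 478, with at most 4 where the library left out was not WT replicate 3. Over all genes the count was 0 with no filter on low values and 0 with the replicate block, against 2 as reported. Deviations of same-numbered libraries from their group means correlated at 0.138, 0.0322 and -0.206 for replicates 1, 2 and 3. The libraries numbered 1 matched each other best in both directions, and those numbered 2 and 3 did not. With 3 libraries in each group this cannot settle whether the numbers pair the libraries. Under the replicate block the members called stayed at 0. The Aldh1a2 share difference ranged from -5.80 to 0.479 percentage points with 1 library left out. Of the 14 closest patterns, 6 also had a Spearman coefficient of 1. The median difference of all tested genes was 0.08, and 0.02 with median-ratio scaling. Crabp1, Crabp2 and Rarb rest on 75 fragments or fewer in every library, which limits what can be seen of them.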
